A study of Mus musculus with 36 samples.

Results

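TRIM genes encode tripartite motif ubiquitin ligases, and their expression was followed in brain, heart, kidney and liver of mice given bacterial lipopolysaccharide (LPS) or LPS followed by genipin. The members were the genes whose current symbol is Trim followed by a number, each read through the probe with the highest mean. This gave 31 genes, from 40 probes, among the 12394 genes named on the array. Brain measured 27 of them, heart 26, kidney 26 and liver 22. Of the 31, 19 were measured in all 4 tissues, 4 in 3 tissues, 5 in 2 tissues and 3 in 1 tissue. A gene is called not measured in a tissue where its used probe was missing from all 9 arrays. Trim2 and Trim45 had another probe with values in such a tissue.

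All groups were female FVB mice, 6 to 8 weeks old, that carried a luciferase reporter transgene. The sources used here do not give the promoter of that transgene. Mock mice received nothing. LPS mice received 4 mg/kg of LPS into the peritoneal cavity, and LPS+Genipin mice received genipin, an iridoid from gardenia fruit, 10 min after the same LPS injection. Tissues were taken about 4 h later, after imaging. The study used genipin at 1, 10 and 100 mg/kg in 5 groups of 5 mice, and the dose behind the arrays is not given. Each tissue had 3 one-colour arrays of Mock, LPS and LPS+Genipin, 36 arrays in 12 groups. Separate mice for the arrays of a group are not stated. The spread behind each p-value is that between arrays and may be technical. Arrays under the intensity floor were set to the floor, so a group wholly under it lost its spread. The number of arrays limits the precision.

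TRIM proteins carry a RING domain that passes ubiquitin to a substrate, a B-box, a coiled coil through which they assemble, and a carboxy-terminal domain that picks the substrate. Several are induced by interferon and act on the sensors of innate immunity: they modify RIG-I, the adaptor proteins around it or the NF-kappaB pathway, or they bind viral proteins directly. Others work far from immunity, at chromatin, on the neuronal cytoskeleton or in the sarcomere. LPS engages Toll-like receptor 4, which signals through MyD88 to NF-kappaB and through TRIF to interferon-beta.

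The labelled tissues carried their own markers: the summed intensity of neuron genes had a median of 17.21 to 17.28 log2 units across the brain groups, cardiomyocyte genes 18.80 to 18.81 in heart, proximal tubule genes 17.74 to 17.91 in kidney and hepatocyte genes 18.00 in liver. Many of these probes read near the highest intensity of the table, so the sums show that the markers are there and not whether they held steady. Some markers of neighbouring tissue moved with the groups and stand beside the results they accompany. Missing values fell by whole tissue, as in values normalized within each tissue, so no result compares levels between tissues. Probe levels were set against each other in choosing the used probe, by its mean over the tissues that measured it. They were added together in the marker sums. In whole tissue, fewer cells of a type and less RNA per cell cannot be told apart. Replicate arrays correlated at 0.985 to 0.998 within a group. Centring the arrays on ribosomal protein genes instead moved the median LPS difference of all genes from -0.06 to 0.21 in heart and from -0.03 to 0.34 in liver, and the median genipin difference from 0.04 to -0.18 in kidney and from 0.03 to -0.19 in liver. Of 150 called TRIM differences 116 kept their call under that centring, 21 no longer passed and 13 changed sign.

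LPS moved the TRIM genes in both directions in every tissue, and a single member rose in all 4. Differences were tested with limma and p-values were adjusted over all genes of a tissue (Benjamini-Hochberg, threshold 0.05). In brain 5 of the 27 rose and 7 fell, where 16.4% of all genes rose and 17.5% fell. In heart 5 of 26 rose and 5 fell, against 18.2% and 29.1% of all genes. In kidney 7 of 26 rose and 12 fell, against 25.2% and 39.2%. In liver 10 of 22 rose and 8 fell, against 29.3% and 37.1%. Most of these shares were near those of all genes, with the liver share of higher members the farthest above. Under ribosomal protein centring the split over all genes went from 1660 higher and 1775 lower to 1939 and 997 in brain, from 1730 and 2771 to 3539 and 991 in heart, and from 2484 and 3144 to 4600 and 1444 in liver. The median difference of the members was -0.03, -0.03, -0.07 and -0.14 in the order brain, heart, kidney and liver, beside -0.00, -0.06, -0.09 and -0.03 over all genes tested. The members lay on both sides of these medians, from -0.91 to 1.36 in brain, -0.69 to 2.93 in heart, -0.75 to 3.42 in kidney and -0.80 to 1.28 in liver.

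Counted by gene, 1 of 31 rose in all 4 tissues, 9 rose in some tissues and fell in others, and none fell in all 4. Trim30a and Trim56 rose in each of the 2 and 3 tissues that measured them, and Trim9 in brain, the tissue that measured it. All told, 8 rose somewhere and fell nowhere, 10 fell somewhere and rose nowhere, and 4 (Trim2, Trim45, Trim46 and Trim54) passed the test in no tissue. These counts rest on the used probe of each gene.

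**Figure D1:**
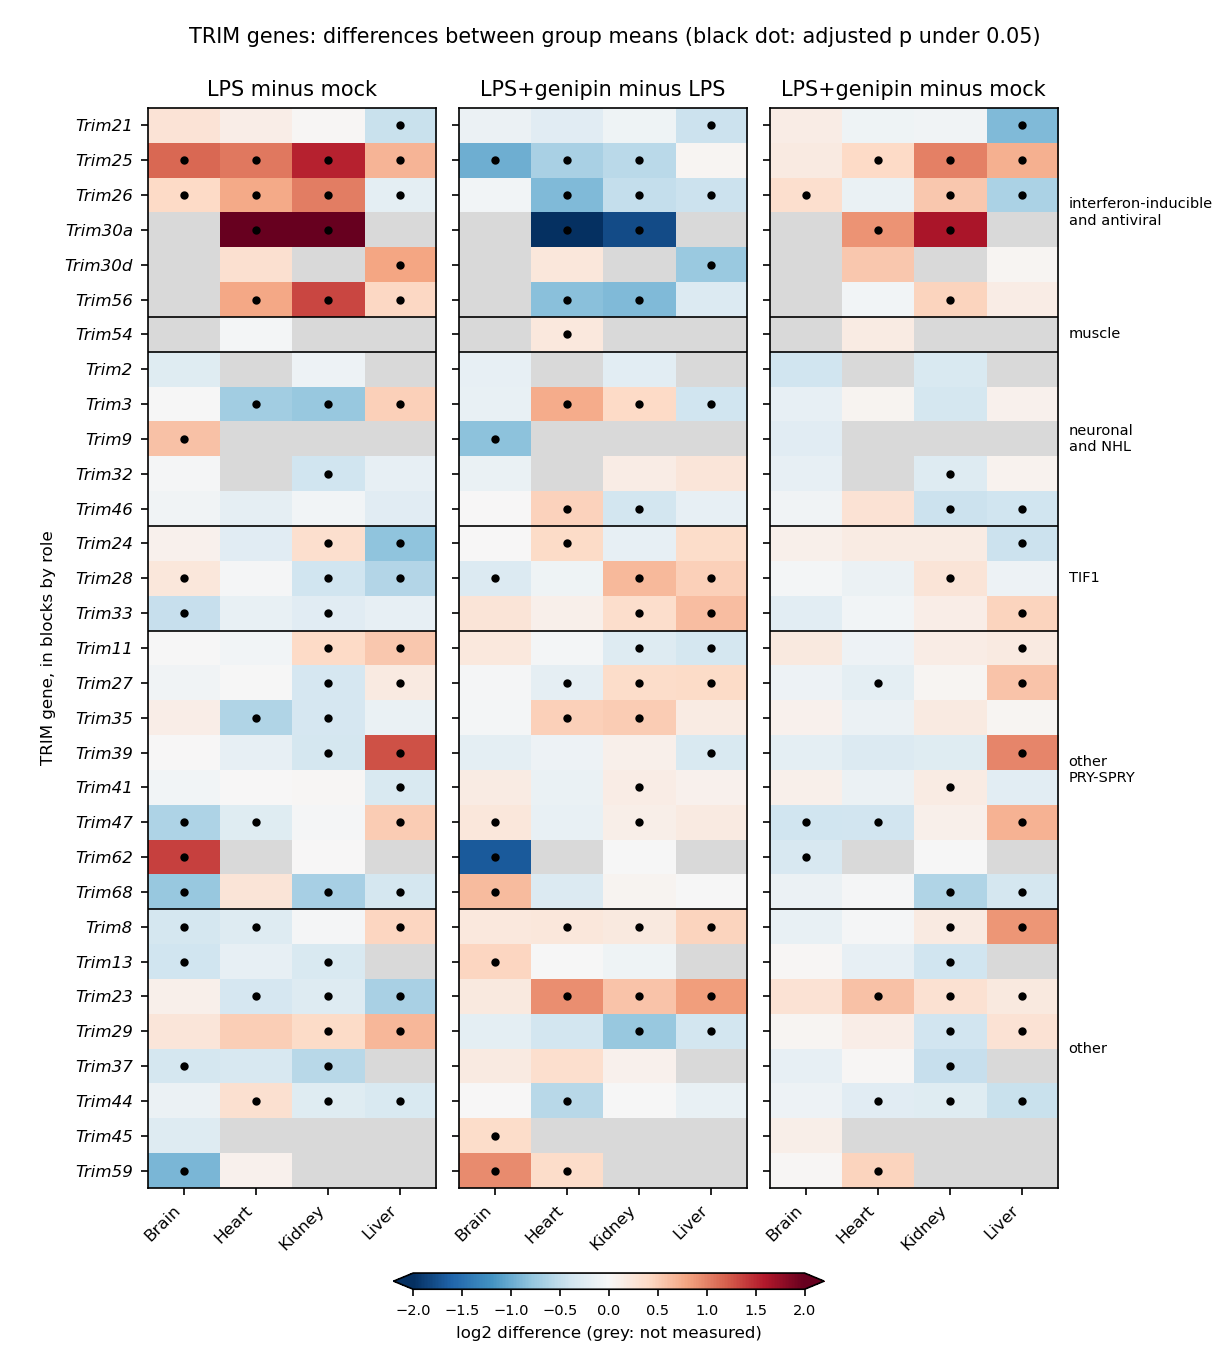
Differences between group means in log2 units for 31 TRIM genes (rows, in blocks by role) in 4 tissues (columns) and 3 comparisons (panels); 3 arrays a group. A black dot marks an adjusted p under 0.05, and grey marks a gene whose used probe was not measured. Values at the intensity floor enter at the floor. Trim25 is the only row called higher in all 4 tissues of the left panel. Under ribosomal protein centring 13 of the 150 dotted cells changed sign.

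Trim25, the ligase that attaches ubiquitin chains to the RNA sensor RIG-I and is itself induced by interferon, was the member that rose everywhere. It was 1 of 19 TRIM genes measured in all 4 tissues, where 3.70% of all such genes (248 of 6698) rose in all 4. In brain its log2 intensity was 9.32, 9.27 and 9.16 in the Mock arrays, 10.20, 10.46 and 10.56 in the LPS arrays and 9.14, 9.51 and 9.65 in the LPS+Genipin arrays. In kidney the Mock arrays read 12.79, 12.97 and 12.91, the LPS arrays 14.32, 14.45 and 14.54 and the LPS+Genipin arrays 13.97, 13.91 and 13.83. The LPS arrays stood above the Mock arrays without overlap in both tissues, and the LPS+Genipin arrays lay between the groups in kidney and overlapped with Mock in brain.

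In heart Trim25 read 11.54, 11.57 and 11.56 in Mock, 12.46, 12.79 and 12.56 in LPS and 11.97, 12.04 and 11.87 in LPS+Genipin. In liver it read 12.23, 12.19 and 12.26 in Mock, 12.86, 12.94 and 12.91 in LPS and 12.96, 12.93 and 12.95 in LPS+Genipin. Liver was the tissue in which the LPS+Genipin arrays stayed at the LPS level at the deposited scaling. Under ribosomal protein centring liver Trim25 stood 1.05 over Mock with LPS and 0.86 over Mock with LPS+Genipin. The rise with LPS in brain was 1.15 ± 0.14 (SE; adjusted p = 0.000724) log2 units, in heart 1.05 ± 0.09 (SE; adjusted p = 3.48e-05), in kidney 1.54 ± 0.07 (SE; adjusted p = 8.67e-07) and in liver 0.68 ± 0.04 (SE; adjusted p = 3.27e-06), or 2.23-fold, 2.07-fold, 2.91-fold and 1.60-fold. The size of the rise differed among the tissues (F test over all 36 arrays, adjusted p = 3.96e-05).

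Compared with LPS alone, LPS+Genipin brains had a Trim25 difference of -0.97 ± 0.14 (SE; adjusted p = 0.00195), hearts -0.65 ± 0.09 (SE; adjusted p = 0.000709) and kidneys -0.53 ± 0.07 (SE; adjusted p = 0.000538), each a called fall. In liver the difference was 0.04 ± 0.04 (SE; adjusted p = 0.466), which did not pass the test. The genipin difference also differed among the tissues (adjusted p = 4.04e-06). These comparisons use the same LPS arrays as the rise, so they are not independent of each other. Set against Mock, LPS+Genipin remained higher by 0.40 in heart, 1.01 in kidney and 0.72 in liver, all called, and by 0.18 in brain, which did not pass (adjusted p = 0.456).

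**Figure D2:**
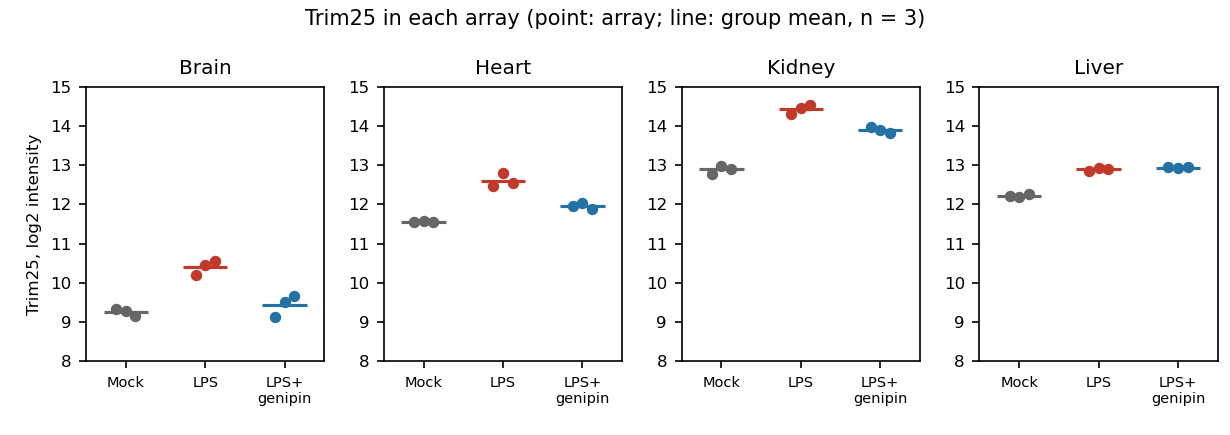
Log2 intensity of Trim25 in each of the 36 arrays, by tissue and group (point: array; line: mean of 3 arrays). All LPS arrays lie above all Mock arrays in each tissue. At the deposited scaling the LPS+Genipin arrays lie below the LPS arrays in brain, heart and kidney but not in liver. The vertical scale is shared to show the size of the differences, and levels are not comparable between tissues.

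The promoters of Trim25, Trim56 and Trim26, which rose in 3 or more tissues, and of Trim30a, which rose in both tissues that measured it, are shown because interferon acts through a short element, the interferon-stimulated response element, whose core was searched on both strands as GAAA, any 2 bases and GAAA (on the other strand TTTC, any 2 bases and TTTC). Each line gives the 250 bases before the gene's start from RefSeq (GRCm38.p6), 5′ to 3′ on the gene's strand, with core matches in capitals; Trim25 is at chr11:88999153-88999402 on the plus strand, Trim56 at chr5:137116208-137116457 on the minus strand, Trim26 at chr17:36836896-36837145 on the plus strand and Trim30a at chr7:104465194-104465443 on the minus strand.
Trim25: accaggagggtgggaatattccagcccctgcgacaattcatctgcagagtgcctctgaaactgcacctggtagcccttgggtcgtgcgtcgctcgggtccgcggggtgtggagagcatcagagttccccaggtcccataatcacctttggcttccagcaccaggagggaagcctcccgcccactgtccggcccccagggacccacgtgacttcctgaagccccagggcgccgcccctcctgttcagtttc
Trim56: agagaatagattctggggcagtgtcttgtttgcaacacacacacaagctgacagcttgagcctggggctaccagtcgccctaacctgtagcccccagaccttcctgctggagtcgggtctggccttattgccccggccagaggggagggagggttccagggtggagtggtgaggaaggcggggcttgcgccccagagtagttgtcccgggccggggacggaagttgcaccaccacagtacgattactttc
Trim26: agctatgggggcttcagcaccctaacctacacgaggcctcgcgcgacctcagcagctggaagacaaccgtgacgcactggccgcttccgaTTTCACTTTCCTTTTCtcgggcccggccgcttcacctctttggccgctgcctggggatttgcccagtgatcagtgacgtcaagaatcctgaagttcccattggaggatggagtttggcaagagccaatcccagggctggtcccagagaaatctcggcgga
Trim30a: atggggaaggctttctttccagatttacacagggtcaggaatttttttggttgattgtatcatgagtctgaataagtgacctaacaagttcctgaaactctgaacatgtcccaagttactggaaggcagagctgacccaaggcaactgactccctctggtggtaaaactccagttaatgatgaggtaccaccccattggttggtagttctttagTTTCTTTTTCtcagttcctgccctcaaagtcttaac

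Trim26 held 2 overlapping matches that begin 160 and 154 bases before its start, and Trim30a held 1 that begins 36 bases before, with another 2 bases after a second annotated start. Trim25 and Trim56 held none in this window. Of the 31 members 25 had promoters in the table, and 5 of these held the core within 250 bases before to 50 after a start: Trim2, Trim21, Trim26, Trim30a and Trim30d. Among the 6 interferon-inducible members 4 held it, against 1 of the other 19. Over all promoters 3.44% of 32851 windows held it, or 3.99% of 27025 genes. The Trim21 matches, GAAACTGAAA and GAAAGTGAAA, overlap and begin 13 and 19 bases after the start. The GAS element TTCNNNGAA was in Trim45 and Trim46 (8.30% of all windows), and the kappaB consensus was in no member (4.51% of all windows). A match describes letters in a window, not a bound site.

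The interferon-inducible and antiviral members, Trim25 among them, mostly rose in heart and kidney and went both ways in liver. With LPS 2 of 3 measured members of this list rose in brain, 4 of 6 in heart and 4 of 5 in kidney, and none fell; in liver 3 of 5 rose and 2 (Trim21 and Trim26) fell, neither of which passed as lower under ribosomal protein centring. With genipin none of them rose over LPS, while 1 of 3 fell in brain, 4 of 6 in heart, 4 of 5 in kidney and 3 of 5 in liver, in the tissues where 13.8%, 19.9%, 22.6% and 24.5% of all genes fell. The list's median difference with LPS was 0.39, 0.77, 1.33 and 0.42 in brain, heart, kidney and liver, with genes at the floor held at their bound.

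Trim30a, a mouse gene whose product restrains NF-kappaB signalling by removing TAB2 and TAB3, had the largest LPS differences of all members. Its log2 intensity in heart was 8.30, 8.39 and 8.60 in Mock, 11.41, 11.46 and 11.20 in LPS and 9.16, 9.25 and 9.59 in LPS+Genipin. In kidney it was 7.93, 7.93 and 7.82 in Mock, 11.53, 11.37 and 11.48 in LPS and 9.68, 9.60 and 9.73 in LPS+Genipin. All kidney Mock arrays lay under the floor of 8.04, the log2 of the 5th percentile of all intensities, so the kidney rise is a lower bound. Held at the floor, these Mock arrays have no spread, so the kidney standard errors and p-values of Trim30a understate it. Trim30a was not measured in brain and liver.

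The heart rise of Trim30a was 2.93 ± 0.13 (SE; adjusted p = 8.03e-07), 7.60-fold, and the kidney rise was at least 3.42 ± 0.05 (SE; adjusted p = 1.17e-09), at least 10.7-fold. Compared with LPS it fell by 2.03 ± 0.13 (SE; adjusted p = 1.27e-05) after genipin in heart, and the kidney difference was -1.79 ± 0.05 (SE; adjusted p = 2.71e-07). The LPS+Genipin arrays overlapped with neither other group. Against Mock they were higher by 0.90 in heart and by at least 1.63 in kidney.

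Trim56, a ligase tied to antiviral signalling through STING and TLR3, rose in each of the 3 tissues that measured it. In kidney the arrays read 8.61, 8.90 and 8.58 in Mock, 10.10, 10.05 and 9.93 in LPS and 9.12, 9.03 and 9.28 in LPS+Genipin. In heart they read 8.50, 8.30 and 8.14 in Mock, 9.19, 9.19 and 8.90 in LPS and 8.18, 8.38 and 8.22 in LPS+Genipin. The heart LPS+Genipin arrays overlapped with Mock, while in kidney the 3 groups did not overlap.

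The rise of Trim56 was 0.78 ± 0.12 (SE; adjusted p = 0.000901) in heart and 1.33 ± 0.10 (SE; adjusted p = 1.21e-05) in kidney, and at least 0.42 ± 0.13 (SE; adjusted p = 0.0191) in liver, where Mock was at the floor. The liver call was lost without LPS replicate 1 (adjusted p = 0.0523) or replicate 2 (adjusted p = 0.0614), and the heart call (adjusted p = 0.0852) and the liver call with a floor at the 20th percentile. Genipin lowered Trim56 by 0.83 ± 0.12 (SE; adjusted p = 0.000823) in heart and by 0.88 ± 0.10 (SE; adjusted p = 0.000203) in kidney. The liver difference of -0.27 did not pass (adjusted p = 0.0995).

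Trim26, a ligase of the MHC region linked to control of interferon-beta induction, rose in 3 tissues and went the other way in liver. Kidney arrays read 11.51, 11.58 and 11.62 in Mock, 12.61, 12.62 and 12.53 in LPS and 12.05, 12.17 and 12.08 in LPS+Genipin. Liver arrays read 11.99, 11.91 and 11.99 in Mock, 11.75, 11.83 and 11.71 in LPS and 11.27, 11.38 and 11.35 in LPS+Genipin. In both tissues the 3 groups did not overlap, with LPS highest in kidney and Mock highest in liver.

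The rise of Trim26 was 0.39 ± 0.06 (SE; adjusted p = 0.00164) in brain, 0.75 ± 0.09 (SE; adjusted p = 0.000237) in heart and 1.02 ± 0.05 (SE; adjusted p = 7.73e-07) in kidney. In liver it fell by 0.20 ± 0.05 (SE; adjusted p = 0.0111), a direction that turned to 0.17 (adjusted p = 0.0627) under ribosomal protein centring. Genipin lowered it by 0.88 in heart, 0.48 in kidney and 0.43 in liver, all called, and the brain difference was -0.05 (adjusted p = 0.53). Its response to LPS differed among tissues with an adjusted p of 1.67e-11, the lowest of the 19 members tested.

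Trim21, the cytosolic antibody receptor that sends antibody-coated virus to the proteasome, did not pass in brain, heart and kidney, where its LPS differences were 0.27, 0.14 and 0.02. In liver its arrays read 10.90, 10.93 and 10.90 in Mock, 10.58, 10.56 and 10.26 in LPS and 10.00, 10.08 and 10.02 in LPS+Genipin. It was lowest in the LPS+Genipin livers, without overlap. The liver fall with LPS was 0.45 (adjusted p = 0.0019) and shrank to -0.07 (adjusted p = 0.521) under ribosomal protein centring. Genipin lowered it by a further 0.43 ± 0.08 (SE; adjusted p = 0.00332), which leaves it 0.88 under Mock (adjusted p = 4.99e-05).

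Trim30d, a paralogue that lies next to Trim30a with no protein-coding gene between them, was measured in heart and liver. Its liver arrays read 7.65, 7.87 and 7.96 in Mock, 8.52, 8.81 and 9.13 in LPS and 7.90, 8.14 and 7.41 in LPS+Genipin. All Mock arrays were at the floor, and the rise was at least 0.78 ± 0.13 (SE; adjusted p = 0.00107), with a fall of 0.75 ± 0.13 (SE; adjusted p = 0.00215) after genipin. Both calls were lost with a floor at the 20th percentile. In heart the LPS difference was 0.32 (adjusted p = 0.298). Probe sequences were not used here, so signal shared between the Trim30 paralogues cannot be told apart.

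**Figure D3:**
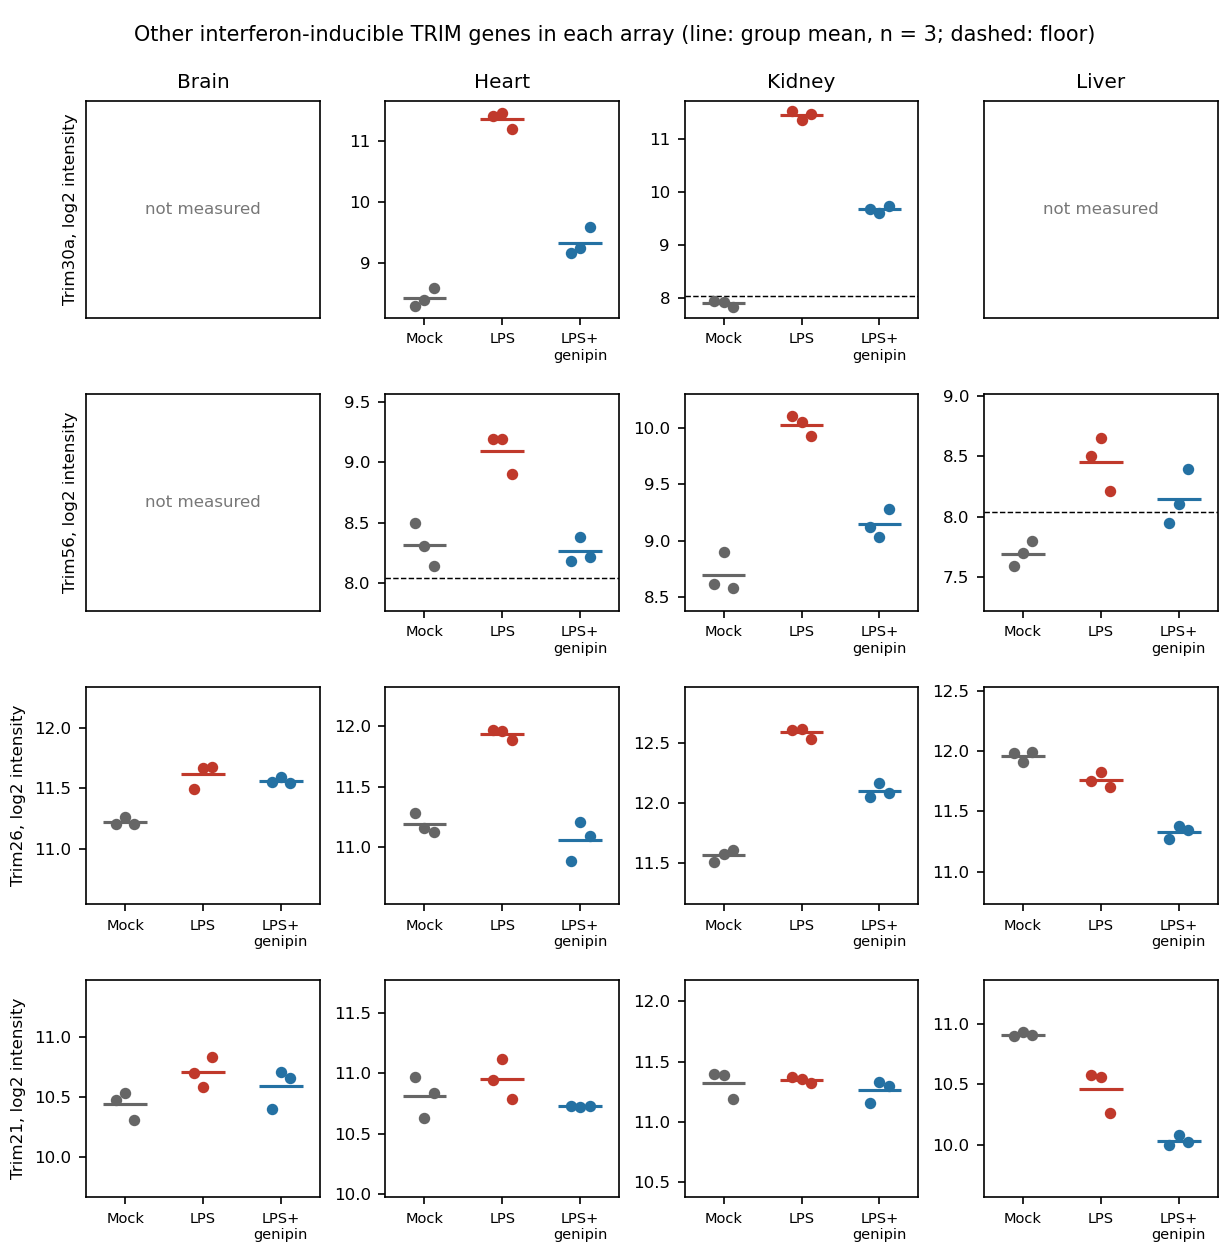
Log2 intensity of Trim30a, Trim56, Trim26 and Trim21 (rows) in each array, by tissue (columns) and group (point: array; line: mean of 3 arrays; dashed line: the floor of 8.04). LPS arrays lie highest for Trim30a and Trim56 in heart and kidney and for Trim26 in heart and kidney, while Trim21 and Trim26 step down from Mock to LPS to LPS+Genipin in liver, for Trim26 with a direction that turned under ribosomal protein centring. Vertical scales differ between panels.

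Neutrophil genes moved with LPS in the same tissues: the summed intensity of the measured markers (S100a8, S100a9 and Ltf in heart, 3 of 8 listed) went from 11.16 to 11.28 in Mock hearts to 15.28 to 15.46 in LPS hearts and 14.03 to 14.14 with genipin. In liver (2 of 8 measured) the ranges were 11.81 to 11.91, 16.30 to 16.40 and 15.80 to 15.92. In kidney S100a9 alone went from 7.96 to 8.50 in Mock to 12.09 to 12.62 in LPS and 12.13 to 12.14 with genipin. Monocyte and macrophage markers had a median sum of 14.28, 14.14 and 14.36 in heart and 13.40, 13.45 and 13.83 in kidney for Mock, LPS and LPS+Genipin. In the same order their medians were 13.97, 13.40 and 13.83 in liver and 13.93, 13.42 and 14.02 in brain. Kupffer cell markers in liver ranged from 14.11 to 14.22, 15.54 to 15.67 and 15.31 to 15.41. With LPS 1 of the 4 Kupffer markers, Marco, rose in liver and 2 fell, so that sum follows Marco. The part of infiltrating cells in these TRIM results was not tested.

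The TIF1 members, chromatin regulators with a PHD finger and a bromodomain, are 3 genes. Of these 2 fell with LPS and 2 rose with genipin in each of kidney and liver, while 1 rose with LPS in kidney. Of all genes 39.2% fell with LPS in kidney and 37.1% in liver, and 32.1% and 29.5% rose with genipin. Of the fibroblast markers 4 of 5 fell and 1 rose with LPS in kidney, 2 of 3 fell in liver, and 5 of 5 and 2 of 3 rose with genipin. Their summed intensity was 14.34 to 14.46, 14.39 to 14.48 and 15.03 to 15.16 in kidney and 14.31 to 14.62, 14.14 to 14.53 and 14.37 to 14.48 in liver for Mock, LPS and LPS+Genipin. Their part in these results was not tested. Trim28, the co-repressor that silences retroelements with KRAB zinc-finger proteins, read 11.44, 11.46 and 11.51 in Mock livers, 10.89, 10.83 and 10.95 in LPS livers and 11.35, 11.39 and 11.34 in LPS+Genipin livers. In kidney it read 11.90, 12.01 and 12.02 in Mock, 11.60, 11.61 and 11.55 in LPS and 12.28, 12.18 and 12.25 in LPS+Genipin. The LPS arrays were lowest in both tissues, without overlap.

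Trim28 fell with LPS by 0.58 ± 0.05 (SE; adjusted p = 1.39e-05) in liver and by 0.39 ± 0.05 (SE; adjusted p = 0.000153) in kidney, and rose with genipin by 0.47 and 0.65. In brain it rose by 0.23 ± 0.07 (SE; adjusted p = 0.044), a call lost with no floor (adjusted p = 0.0508) and without Mock replicate 1, 2 or 3, LPS replicate 2 or 3, or LPS+Genipin replicate 2 or 3 (adjusted p = 0.0554 to 0.118). Trim24, a co-regulator of nuclear receptors and p53, read 10.94, 10.91 and 10.42 in Mock livers and 10.11, 9.94 and 9.82 in LPS livers, a fall of 0.80 ± 0.15 (SE; adjusted p = 0.00162), and it rose by 0.33 ± 0.07 (SE; adjusted p = 0.00475) in kidney. Trim33, which acts on Smad4 in TGF-beta signalling, fell by 0.46 ± 0.08 (SE; adjusted p = 0.00432) in brain, and the used probe rose by 0.61 ± 0.08 (SE; adjusted p = 0.000326) with genipin in liver. Another Trim33 probe had differences of the opposite sign in both, as given with the probe pairs.

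The PRY-SPRY members outside the interferon list held the largest brain change. With LPS 1 of 8 rose and 2 fell in brain, none of 7 rose and 2 fell in heart, 1 of 8 rose and 4 fell in kidney, and 4 of 7 rose and 2 fell in liver. Trim62, which ubiquitinates the antifungal adaptor CARD9, read 11.90, 11.87 and 11.82 in Mock brains, 13.12, 13.27 and 13.29 in LPS brains and 11.64, 11.56 and 11.44 in LPS+Genipin brains. It rose by 1.36 ± 0.07 (SE; adjusted p = 6.36e-06) with LPS, the largest brain difference of the family, and fell by 1.68 ± 0.07 (SE; adjusted p = 5e-06) with genipin. The LPS+Genipin arrays ended 0.32 under Mock (adjusted p = 0.0194, and 0.0528 under ribosomal protein centring). In kidney Trim62 was at the floor in every group and has no fold.

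Trim68, known as a co-activator of the androgen receptor, read 8.82, 8.78 and 8.77 in Mock brains, 7.88, 7.77 and 7.73 in LPS brains and 8.68, 8.63 and 8.70 in LPS+Genipin brains. All LPS arrays were under the floor, so the fall was at least 0.75 (adjusted p = 7.95e-06) and the rise with genipin at least 0.63 (adjusted p = 3.79e-05). Arrays held at the floor have no spread, so the p-values of Trim68 in brain and liver understate the spread between arrays. A floor at the 20th percentile removed both. It also fell by 0.66 ± 0.09 (SE; adjusted p = 0.00033) in kidney and by at least 0.35 in liver (adjusted p = 7.58e-05), the latter turning to 0.02 under ribosomal protein centring.

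Among the other lists, Trim59, an endoplasmic reticulum protein that dampens Toll-like receptor signalling, moved in brain the other way. It read 11.74, 11.74 and 11.71 in Mock, 10.85, 10.90 and 10.73 in LPS and 11.84, 11.78 and 11.68 in LPS+Genipin. It fell by 0.91 ± 0.06 (SE; adjusted p = 2.97e-05) with LPS and rose by 0.94 ± 0.06 (SE; adjusted p = 4.27e-05) with genipin, and the LPS+Genipin arrays overlapped with Mock. Trim9, a neuronal ligase of axon guidance and synaptic vesicle release, was measured in brain alone and read 9.0, 9.30 and 9.35 in Mock, 9.76, 9.92 and 9.73 in LPS and 8.88, 9.18 and 8.90 in LPS+Genipin. It rose by 0.59 ± 0.12 (SE; adjusted p = 0.00663) and fell by 0.81 ± 0.12 (SE; adjusted p = 0.00178).

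These brain changes ran beside differences in cell type marker genes between the brain groups. Choroid plexus genes (Ttr, Kl, Folr1 and Clic6, 4 of 5 listed) summed to 16.02 to 16.03 in Mock brains, 11.90 to 12.22 in LPS brains and 16.09 to 16.10 in LPS+Genipin brains, with 1 of the 4 at the floor in Mock and in LPS. That sum follows Ttr, which fell by 4.46 with LPS, and Kl, which fell by 0.75, while Folr1 was at the floor in both groups and Clic6 differed by 0.23 (adjusted p = 0.140). Skeletal muscle genes (6 of 10 listed) summed to 17.39 to 17.48, 15.66 to 15.92 and 15.18 to 15.41. Microglia genes (4 of 5 listed) summed to 13.24 to 13.31, 11.74 to 11.89 and 12.71 to 12.75. The choroid plexus and microglia sums were thus lowest in the LPS arrays, as Trim59 and Trim68 were, and Trim62 and Trim9 were highest there. Their part in the TRIM results was not tested.

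**Figure D4:**
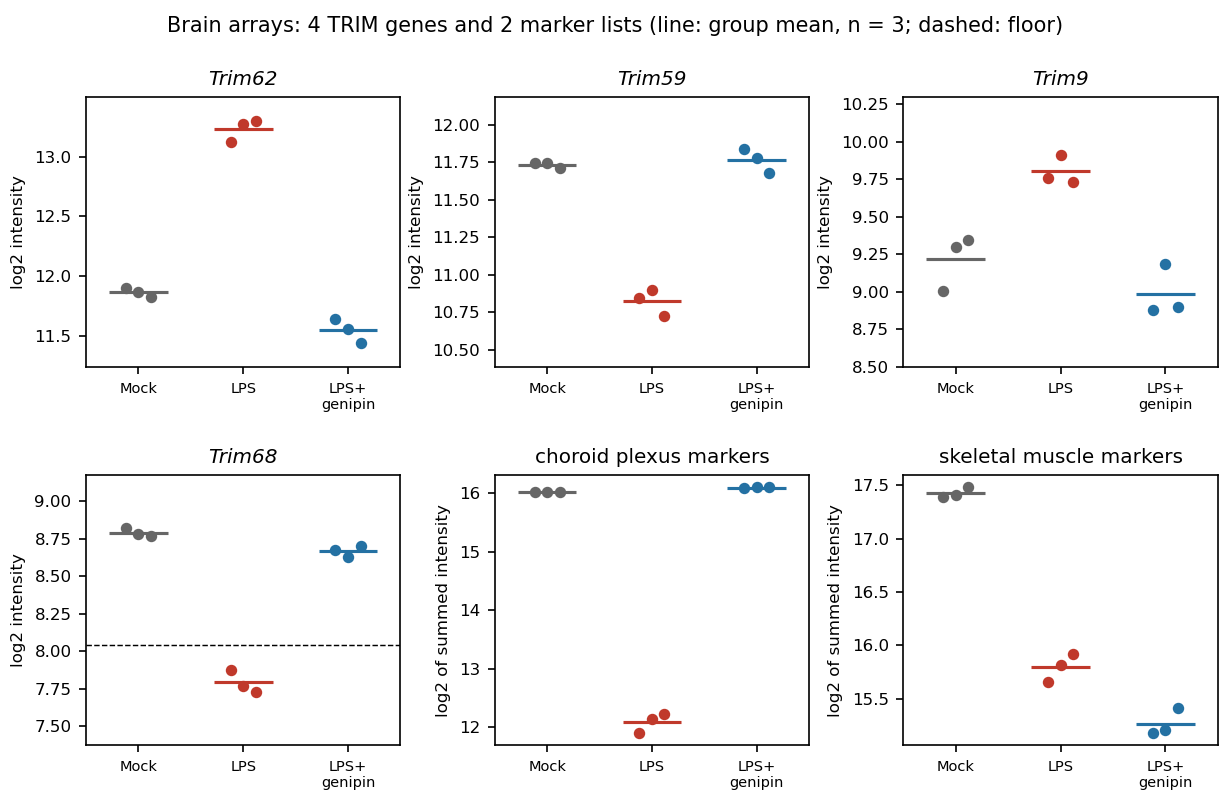
Log2 intensity of Trim62, Trim59, Trim9 and Trim68 in the 9 brain arrays, with the log2 of the summed intensity of choroid plexus and skeletal muscle markers (point: array; line: mean of 3 arrays; dashed line: the floor of 8.04). In the LPS arrays Trim62 and Trim9 are highest, Trim59 and Trim68 lowest, and the choroid plexus sum falls from about 16.03 to about 12.13. Vertical scales differ between panels.

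Liver had the largest change of Trim39, a ligase of the MHC region that controls the anaphase-promoting complex and lies 9 protein-coding genes from Trim26. Its arrays read 10.39, 10.41 and 10.40 in Mock, 11.70, 11.82 and 11.52 in LPS and 11.39, 11.37 and 11.37 in LPS+Genipin. It rose by 1.28 ± 0.07 (SE; adjusted p = 1.76e-06), 2.43-fold, and genipin lowered it by 0.30 ± 0.07 (SE; adjusted p = 0.00836), to 0.98 over Mock. In kidney it fell by 0.35 ± 0.09 (SE; adjusted p = 0.0114), and its brain and heart differences of 0.00 and -0.17 did not pass. The difference among tissues had an adjusted p of 5.52e-11.

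Of the other PRY-SPRY members, Trim11, which binds the peptide humanin, rose by 0.40 ± 0.06 (SE; adjusted p = 0.000634) in kidney and by 0.54 ± 0.06 (SE; adjusted p = 0.000149) in liver. Trim35, known from erythroid and macrophage cells, read 12.80, 12.92 and 12.93 in Mock hearts, 12.21, 12.42 and 12.22 in LPS hearts and 12.86, 12.76 and 12.68 in LPS+Genipin hearts, a fall of 0.60 ± 0.08 (SE; adjusted p = 0.00044) and a rise of 0.48 ± 0.08 (SE; adjusted p = 0.00183). Trim47 fell by 0.61 ± 0.07 (SE; adjusted p = 0.00054) in brain and rose by 0.51 ± 0.07 (SE; adjusted p = 0.000304) in liver. Its smaller heart fall of 0.24 turned to 0.03 under ribosomal protein centring and was lost without any Mock array or LPS replicate 1 or 2, and its kidney rise of 0.12 with genipin turned to -0.11 under it and was lost without any 1 array other than Mock replicate 2 or LPS replicate 2. Trim27 (called in kidney and liver) and Trim41 (called in liver) stayed within 0.33 log2 units of Mock after LPS, and the liver fall of Trim41 turned to 0.07 under that centring.

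Among the neuronal and NHL members 1 of 5 rose in brain, 1 of 2 fell in heart, 2 of 4 fell in kidney and 1 of 3 rose in liver. Trim3, an NHL protein of the nervous system, read 9.16, 9.39 and 9.36 in Mock hearts, 8.56, 8.69 and 8.60 in LPS hearts and 9.30, 9.27 and 9.5 in LPS+Genipin hearts. It fell by 0.69 ± 0.09 (SE; adjusted p = 0.00036) in heart and by 0.75 ± 0.13 (SE; adjusted p = 0.00151) in kidney, rose by at least 0.48 in liver (adjusted p = 0.000742), and its brain difference was -0.00. Genipin raised it by 0.74 in heart and 0.40 in kidney (adjusted p = 0.216 under ribosomal protein centring, and lost without Mock replicate 1, LPS replicate 2 or 3, or any LPS+Genipin array) and lowered it by 0.39 in liver. The kidney and liver calls were lost with a floor at the 20th percentile.

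Trim32, mutated in a limb-girdle muscular dystrophy, fell by 0.41 ± 0.07 (SE; adjusted p = 0.00182) in kidney. Trim2, which ubiquitinates neurofilament light chain, and Trim46, which bundles microtubules at the axon start, passed with LPS in no tissue, with differences of -0.24 to -0.05. For Trim2 this holds for the used probe, which was dimmer in brain and kidney than a second probe given with the probe pairs. With genipin Trim46 rose by 0.47 ± 0.14 (SE; adjusted p = 0.0253) in heart and fell by 0.37 ± 0.07 (SE; adjusted p = 0.00214) in kidney. Trim54, the muscle RING finger protein MuRF3 of the sarcomere, was the measured member of the muscle list and was seen in heart alone. Its arrays read 14.12, 14.19 and 14.14 in Mock, 14.02, 14.06 and 14.26 in LPS and 14.31, 14.35 and 14.29 in LPS+Genipin. The LPS difference was -0.04 ± 0.07 (SE; adjusted p = 0.698), and the rise with genipin of 0.20 ± 0.07 (SE; adjusted p = 0.0478) did not pass under ribosomal protein centring (adjusted p = 0.0520) or without any 1 array other than LPS replicate 3.

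Of the remaining members 4 of 8 fell with LPS in brain, 1 of 7 rose and 2 fell in heart, 1 of 6 rose and 4 fell in kidney, and 2 of 4 rose and 2 fell in liver. Trim23 has a carboxy-terminal domain that is an ARF-type GTPase, and it acts on the NF-kappaB regulator NEMO. In liver it read 8.75, 8.67 and 8.74 in Mock, 8.08, 8.11 and 7.92 in LPS and 8.85, 8.85 and 9.04 in LPS+Genipin. In heart it read 8.94, 9.0 and 8.96 in Mock, 8.80, 8.74 and 8.34 in LPS and 9.45, 9.59 and 9.62 in LPS+Genipin. LPS+Genipin was the highest group in both tissues and its arrays overlapped with neither other group.

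Trim23 fell with LPS by 0.65 ± 0.06 (SE; adjusted p = 3.97e-05) in liver, and its smaller falls in heart (-0.34) and kidney (-0.25) lost their calls without LPS replicate 3 (adjusted p = 0.0519 and 0.0707) and other single arrays (any Mock or LPS+Genipin array in heart; Mock replicate 1 or 3 or LPS replicate 2 in kidney; up to 0.110), the heart call also under ribosomal protein centring (-0.07). Genipin raised it by 0.93 ± 0.12 (SE; adjusted p = 0.000482) in heart, 0.57 ± 0.09 (SE; adjusted p = 0.000899) in kidney and 0.84 ± 0.06 (SE; adjusted p = 2.34e-05) in liver, where a second probe differed by -0.18 in kidney and by -0.26 in liver. With a floor at the 20th percentile both liver differences lost their calls. Trim8, which binds SOCS1 and promotes NF-kappaB signalling, stepped up in liver from 11.83, 11.93 and 11.79 in Mock to 12.27, 12.31 and 12.29 in LPS and 12.70, 12.79 and 12.71 in LPS+Genipin. Its LPS rise was 0.44 ± 0.05 (SE; adjusted p = 0.000145), its genipin rise 0.45 ± 0.05 (SE; adjusted p = 0.000238) (0.22 with adjusted p = 0.0717 under ribosomal protein centring), and the sum against Mock was 0.89. In brain it fell by 0.35 ± 0.08 (SE; adjusted p = 0.0131).

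Trim29, which lacks a RING domain and restrains innate responses in airway macrophages, had positive LPS differences throughout, at 0.24, 0.50, 0.38 and 0.66 for brain, heart, kidney and liver. Kidney and liver passed, while brain (adjusted p = 0.121) and heart (adjusted p = 0.0714) did not. Under ribosomal protein centring it joined Trim25 as called higher in all 4. In kidney genipin lowered it by 0.76 ± 0.07 (SE; adjusted p = 7.28e-05), to 0.38 under Mock.

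Trim13, an endoplasmic reticulum ligase, fell with LPS by 0.40 ± 0.06 (SE; adjusted p = 0.00189) in brain and by 0.31 in kidney, and rose with genipin by 0.43 in brain. Trim37, a peroxisomal and centrosomal ligase, fell by 0.35 in brain (adjusted p = 0.0165, and 0.0804 under ribosomal protein centring) and by at least 0.55 in kidney (adjusted p = 0.00028), where all LPS arrays were at the floor. Trim44, a RING-less member with a ubiquitin-binding zinc finger, rose by 0.33 ± 0.06 (SE; adjusted p = 0.00181) in heart and fell by 0.56 there with genipin, and its other probes had heart differences of the opposite sign. Trim45, whose used probe was measured in brain alone, rose by 0.37 ± 0.11 (SE; adjusted p = 0.0325) with genipin (adjusted p = 0.122 under ribosomal protein centring).

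Cell type marker genes differed between the heart groups as well. Atrial muscle genes (Myl7 and Myl4, 2 of 4 listed) summed to 11.96 to 12.09 in Mock hearts, 16.95 to 17.00 in LPS hearts and 11.66 to 11.70 in LPS+Genipin hearts. Adipocyte genes (3 of 7 listed) summed to 13.62 to 14.12, 16.39 to 16.57 and 14.07 to 14.60. Hepatocyte genes (4 of 5 listed) summed in heart to 11.60 to 11.76, 14.08 to 14.78 and 12.13 to 12.40. The heart differences of Trim3, Trim23, Trim35, Trim44, Trim26, Trim56 and Trim30a stand beside these shifts, whose part was not tested. In kidney hepatocyte genes (4 of 5 listed) had medians of 14.53, 15.61 and 15.95 for Mock, LPS and LPS+Genipin. Adipocyte genes (4 of 7 listed) had kidney medians of 14.92, 15.34 and 15.81. Their part in the kidney TRIM results was not tested.

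Genipin, compared with LPS alone, moved the family in both directions. In brain 5 of 27 rose and 4 fell, where 16.3% of all genes rose and 13.8% fell. In heart 8 of 26 rose and 6 fell (22.1% and 19.9% of all genes), in kidney 9 of 26 rose and 7 fell (32.1% and 22.6%), and in liver 5 of 22 rose and 7 fell (29.5% and 24.5%). Most of these shares were near the background, with heart the farthest above it for members that rose. Under ribosomal protein centring the split over all genes went from 1653 higher and 1403 lower to 857 and 1636 in brain, from 2106 and 1890 to 2463 and 1410 in heart, from 3045 and 2142 to 1197 and 4225 in kidney, and from 2502 and 2077 to 1220 and 3488 in liver. Compared with Mock, the LPS+Genipin arrays differed for 3 of 27 members in brain (1 higher and 2 lower, beside 8.87% and 5.57% of all genes) and for 7 of 26 in heart (4 higher and 3 lower, beside 7.54% and 12.3%). In kidney 15 of 26 differed (8 higher and 7 lower, beside 20.2% and 24.3%), and in liver 15 of 22 (9 higher and 6 lower, beside 28.5% and 32.5%). Under ribosomal protein centring the heart count became 15 higher and 0 lower, and all genes went from 718 higher and 1167 lower to 4784 and 221 in heart, from 1909 and 2305 to 1000 and 4669 in kidney, and from 2415 and 2756 to 2903 and 1819 in liver. The 3 comparisons share arrays, so their counts are not independent.

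The tissues disagreed for most members. Among the 19 measured in all 4, the LPS difference varied with tissue for 16 (F test, adjusted over 6698 genes), beside 77.0% of all genes, and the genipin difference for 14, beside 74.4%. Trim29, Trim33 and Trim46 did not pass for LPS, and Trim8, Trim21, Trim29, Trim39 and Trim41 did not pass for genipin. These F tests used the deposited scaling, and ribosomal protein centring moved the tissues by unequal amounts, which can change differences between tissues.

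TRIM-family genes with other names were measured too. Pml, the nuclear body protein induced by interferon, rose in all 4: by 0.67 ± 0.11 (SE; adjusted p = 0.00321) in brain, in heart by 2.58 ± 0.06 (SE; adjusted p = 1.64e-08), in kidney by 2.16 ± 0.05 (SE; adjusted p = 9.82e-09) and in liver by 1.72 ± 0.06 (SE; adjusted p = 1.79e-07). The difference of LPS+Genipin from LPS was -0.68, -1.94, -1.08 and -1.68 in the same order, all called. Mid1, a microtubule-associated member, rose by 0.26 in brain, 0.76 in kidney and 0.51 in liver, and its heart difference was -0.14 (adjusted p = 0.418).

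Sensors and adaptors on which TRIM ligases act were read beside the members. Of the RIG-I, STING, Toll-like receptor and interferon signalling genes 8 of 21 rose in brain, 11 of 22 in heart, 15 of 22 in kidney and 13 of 23 in liver, and 3, 1, 2 and 3 fell. With genipin 7, 12, 14 and 11 fell and 3, 1, 1 and 4 rose. The shares of all genes that rose with LPS were 16.4%, 18.2%, 25.2% and 29.3%, and those that fell with genipin 13.8%, 19.9%, 22.6% and 24.5%, in the same order. Isg15, the ubiquitin-like interferon product, rose by 2.62, 4.15, 5.44 and 4.49 in brain, heart, kidney and liver. Ifih1, the RNA sensor MDA5, rose by 1.74, 2.99, 3.81 and 1.39 in that order. Ddx58, the RIG-I sensor that Trim25 modifies, was measured in kidney alone, where it rose by 2.99 ± 0.11 (SE; adjusted p = 2.55e-07) and fell by 1.44 with genipin. Ikbke, the kinase IKK-epsilon, rose by 3.23 in heart, 2.10 in kidney and 3.00 in liver.

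Ubiquitin and ISG15 conjugation partners gave counts in both directions. Of 13 measured in brain 3 rose and 2 fell with LPS, of 13 in heart 6 and 3, of 13 in kidney 7 and 3, and of 14 in liver 7 and 4, to be read against the 16.4%, 18.2%, 25.2% and 29.3% of all genes that rose and the 17.5%, 29.1%, 39.2% and 37.1% that fell. The 4 with the largest mean differences belong to the ISG15 pathway: Usp18, its protease, rose by 2.34, 3.46, 4.86 and 4.04 in brain, heart, kidney and liver, and Ube2l6, its conjugating enzyme, by 0.88, 1.00, 2.12 and 0.29. Uba7, its activating enzyme, rose by 0.96, 1.37 and 1.14 in heart, kidney and liver and did not pass in brain. Herc6, its ligase in mice, was measured in liver and rose by 1.93. The RNF genes, RING ligases without the tripartite motif, gave a wider view: 12 of 59 rose and 8 fell in brain, 9 of 54 and 16 in heart, 10 of 57 and 25 in kidney, and 18 of 58 and 21 in liver, most of them near the same shares of all genes.

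Members with more than 1 probe did not always agree. Of the Trim33 probes, the used one fell by 0.46 in brain while a second differed by 0.06, and in liver the used probe differed by -0.17 and the second by 0.53. With genipin the same pair differed by 0.61 and -0.59 in liver and by 0.36 and -0.24 in kidney. Another Trim33 probe, read in kidney, differed by -0.48 with LPS and 0.65 with genipin, and another, read in liver, by -0.34 and 0.88, the same directions as the used probe. For Trim44 the used probe rose by 0.33 in heart while both others differed by -0.71 and -0.60, and with genipin it fell by 0.56 while they differed by 0.45 and 0.24. In kidney the 3 Trim44 probes differed by -0.24, -0.53 and -0.47. The used Trim35 probe differed by -0.60 in heart and the other by -0.04. The used Trim23 probe differed by -0.65 in liver and the other by -0.07, and in kidney by -0.25 and 0.19. With genipin they differed by 0.84 and -0.26 in liver, 0.57 and -0.18 in kidney, and 0.93 and 0.55 in heart. A second Trim45 probe, at the floor in Mock livers, differed there by 0.84 with LPS and by -0.77 with genipin. A second Trim2 probe, measured in all 4 tissues, was higher by 0.65 in LPS hearts, where the used probe was not measured. That second probe was brighter than the used one in brain (mean 15.62 against 14.07) and kidney (13.77 against 11.90). Its mean over all arrays was lower, as it also took in heart (11.13) and liver (11.20). The probes other than the used ones are given as values with no test, and the direction of Trim33, Trim44 and, in kidney and liver, Trim23 depends on the probe.

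**Figure D5:**
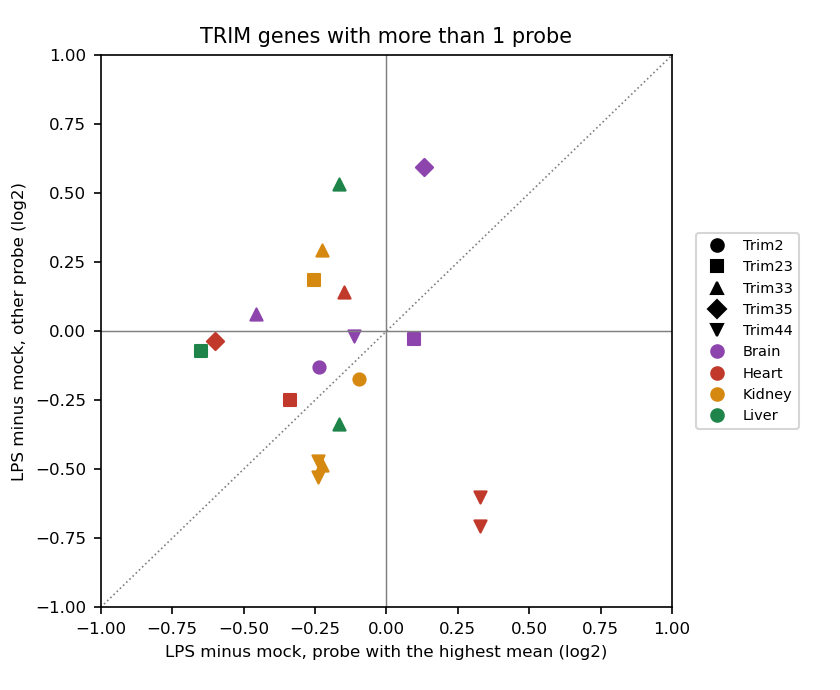
LPS minus Mock difference in log2 units of the probe with the highest mean (horizontal) and of another probe of the same gene in the same tissue (vertical); each point is the difference between means of 3 arrays, with the shape giving the gene and the colour the tissue, and the dotted line marking equal values. Points in the upper left and lower right, such as Trim44 in heart at 0.33 against -0.71 and -0.60, are probes of 1 gene with opposite signs.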

How the data were processed

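The authors deposited 1 table of normalized linear intensities for 18183 probes on 36 arrays, with values from 9.46 to 65492. The tool limma is named, with no version, per the submitters' processing notes; how the values were normalized and the probes' genome build are not given in the sources. Per the labels, 5 µg of total RNA was amplified and labelled with Cy5. Probes were missing by whole tissue (brain 3680, heart 4640, kidney 4919, liver 6304). In the probe annotation given, 14817 probes had 1 gene symbol, 0 had several and 3366 had none. Of the 14817, 12468 symbols were current, 2318 were updated and 31 were kept as given.

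The deposited intensities were converted to log2 after a floor at their 5th percentile (263, or 8.04 on the log2 scale). Per gene, the probe with the highest mean over its arrays was used. Each tissue was fitted by itself with limma 3.58.1 (R 4.3.3; lmFit and eBayes, 9 arrays, 3 group means). Benjamini-Hochberg adjustment ran over all genes of the tissue (10139, 9518, 9472 and 8472 for brain, heart, kidney and liver), with a threshold of 0.05. The difference between tissues was an F test of the tissue by treatment interaction over 36 arrays and 6698 genes. It treated the arrays as independent, and whether the tissues of a group came from the same mice is not stated. A group at the floor on all arrays gives a bound ("at least"). Such a group has no spread, so its standard errors and p-values understate the spread between arrays. With no floor, 76 of the 80 called values of named members kept direction and call. Python 3.11.15 made the tables (pandas 2.3.3, numpy 2.4.6) and the figures (matplotlib 3.10.9). Other probes of a gene and unnamed probes were left out of the tests.

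Values were named for members called higher in all 4 tissues, the 6 largest called LPS differences and 4 largest called genipin differences of each tissue, every interferon-inducible, muscle and other-named TRIM gene, and at most 4 genes of each further list. The other members are accounted for more briefly. The members and lists were chosen with earlier results of these data known. The alternatives were other floors, a filter on dim genes, another variance prior, ribosomal protein centring, the probe chosen within the tissue, the replicate number as a block, and leaving out each array. The labels do not say that a number marks a shared animal or day. In brain, the deviations of LPS and LPS+Genipin arrays of the same number from their group means correlated at 0.143, 0.191 and 0.180. No other pair of groups had every correlation over 0.1. Brain arrays of different numbers reached 0.31, so no pairing is established. The fit was tested on simulated data with independent normal scatter and no floor. In each tissue 100 genes were changed by each size, far fewer than were called in the real arrays. The recovered shares hold for that setting and are not rates for the TRIM genes. With 3 arrays against 3, it recovered 70% (brain, 10139 genes), 55% (heart, 9518), 81% (kidney, 9472) and 67% (liver, 8472) of simulated LPS changes of 0.5 log2 units. For changes of 1 log2 unit it recovered 99%, 94%, 99% and 97% in the same order.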

Additional observations from a re-analysis of the deposited data

Results flagged for a closer look

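The response to LPS differed among the 4 tissues for 16 members by the test of the difference itself (limma F test over 36 arrays, adjusted over 6698 genes). Adjusted p-values ran from 1.67e-11 for Trim26 and 5.52e-11 for Trim39, through 3.2e-10 for Trim47, 7.7e-09 for Trim3, 8.04e-09 for Trim28, 9.76e-09 for Trim68, 1.06e-07 for Trim8, 5.31e-07 for Trim24 and 5.97e-06 for Trim44. Lower in that order came Trim11 at 2.4e-05, Trim25 at 3.96e-05, Trim35 at 6.87e-05, Trim23 at 0.00017, Trim21 at 0.000197, Trim27 at 0.000894 and Trim41 at 0.0222. For Trim26 the brain, heart and kidney differences were 0.39, 0.75 and 1.02 and the liver difference -0.20. Trim39 was at 1.28 in liver and between -0.35 and 0.00 elsewhere.

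The difference between LPS+Genipin and LPS differed among the tissues for 14 members. Adjusted p-values were 3.85e-10 for Trim28, 1.53e-07 for Trim3, 2.23e-07 for Trim26, 4.24e-07 for Trim68, 4.04e-06 for Trim25, 1.94e-05 for Trim27 and 2.44e-05 for Trim44. For Trim23 the value was 8.87e-05, for Trim46 0.000198, for Trim11 0.000304, for Trim35 0.00055, for Trim24 0.00253, for Trim33 0.00325 and for Trim47 0.00578. Trim28 was at -0.27, -0.09, 0.65 and 0.47 in brain, heart, kidney and liver. A share of 77.0% of all genes differed among tissues for LPS and 74.4% for genipin, so 16 and 14 of 19 are close to the background.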

How the results depend on the processing

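Of the 80 called values of named members, 486 refits under other settings kept direction and call, 37 kept direction and lost the call, and 4 changed sign. Leaving out single arrays kept 657 and lost 63. All 4 sign changes came with ribosomal protein centring: Trim26 in liver became 0.17, Trim68 in liver 0.0226 and Trim47 in heart 0.0254 for LPS minus Mock, and Trim47 in kidney became -0.11 for genipin minus LPS. Under that centring 2 members, Trim25 and Trim29, were higher with LPS in all 4 tissues, and 15 members differed between LPS+Genipin and Mock hearts, where 7 did before. The filter on dim genes left fewer members to test. With it 4 of 21 were called for genipin against LPS in brain, 12 of 18 for LPS in kidney and 11 of 13 for LPS in liver. A floor at the 20th percentile ended 17 of the 80 calls, which limits what can be said of the dim probes of Trim3, Trim23, Trim30d, Trim56 and Trim68.

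Leaving out single arrays moved the members called with LPS from 9 to 13 in brain, 7 to 10 in heart, 15 to 19 in kidney and 16 to 19 in liver. For genipin against LPS the ranges were 6 to 10, 9 to 15 (9 without LPS_Genipin heart replicate 2), 13 to 16 and 12 to 13. For LPS+Genipin against Mock they were 2 to 5 (5 without LPS brain replicate 1), 4 to 9 (4 without Mock heart replicate 2, or without LPS_Genipin heart replicate 1 or 2), 10 to 15 and 11 to 16. The count higher in all 4 stayed at 1. The counts differing among tissues ran from 15 to 17 for LPS and 14 to 17 for genipin.

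Arrays with the same number in different groups of a tissue had correlations of -0.52 to 0.29 between their deviations, and arrays with different numbers -0.32 to 0.59. Every same-number correlation was over 0.1 in 1 comparison only, LPS+Genipin against LPS in brain. Brain arrays of different numbers reached 0.31, so these values do not establish a pairing. With the replicate block, LPS+Genipin against LPS in brain kept 5 higher and 4 lower members, and Trim47 (0.22, adjusted p = 0.0711 in limma) was no longer called. Over all tissues the replicate block ended 6 of the 80 calls, such as Trim23 in heart (-0.34, adjusted p = 0.0718 in limma), and moved no count of called members past 1.5 times.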
